A study of Mus musculus with 16 samples.

Results

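Messenger RNA of 9 germline genes, Dazl, Hormad1, Sycp1, Sycp2, Sycp3, Ddx4, Mael, Tex101 and Stk31, was measured in mouse embryonic stem cells (ESCs), the cultured pluripotent cells of the blastocyst. The genes were taken by name, from a list drawn up with earlier results of these data known. All 9 were among the 35968 genes with summed counts and among the 18944 genes that passed the filter on low counts. There were 4 groups of 4 libraries. These were Dgcr8 KO and wild-type (WT) cells, each under mTOR inhibition (mTORi, here called paused) and in normal culture. Day 2 is given for all 4 groups. Dgcr8 binds primary microRNA transcripts so that the nuclease Drosha can cleave them, and mTOR is a growth kinase whose inhibition slows ESCs into a dormancy-like state. The labels name no inhibitor, do not say which exons of Dgcr8 were deleted and do not say whether the KO cells were 1 clone. Nothing states that replicates came from separate cultures, so the p-values cover the spread among these libraries alone, which may be technical.

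In mice, these genes are used in germ cells and are kept low in most other cells. Methylation of CpG-rich promoters by Dnmt1, Dnmt3a and Dnmt3b is known to silence many of them. So is PRC1.6, a polycomb complex that reaches promoters through the E-box factors Mga and Max and through E2f6. Pluripotent cells are known to keep some of these genes at a low level.

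DNA methylation was not measured here, so the silencing that gives this group of genes its name could not be checked. All 9 genes had counts in all 16 libraries. The lowest count was 22, for Tex101 in a KO library in normal culture, and the highest was 3358, for Ddx4 in a paused KO library. Group means ran between 0.382 TPM (a level per length, scaled to the library), for Sycp2 in KO cells in normal culture, and 28.7 TPM, for Mael in paused KO cells. None of the 9 genes was therefore without RNA in any group.

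The promoters show which sequence features known from this class of gene each member holds. RefSeq windows on GRCm38.p6 from 250 bases before to 50 bases after the start were held for all 9 genes. CpG counts in these 300 bases were 38 for Ddx4, 28 for Dazl, 28 for Stk31, 24 for Hormad1, 24 for Mael, 21 for Sycp1, 19 for Tex101, 15 for Sycp3 and 10 for Sycp2. The median over all 32851 windows was 7, so every member lay above it. Sycp2 had the lowest ratio of observed to expected CpG, 0.363, close to the median of 0.384 of all windows. The E-box CACGTG, which reads the same on both strands, stood in 6 of the 9 windows and in 7.15% of all windows. The E2F core TCCCGC, searched on both strands (GCGGGA on the other), stood in 5 of the 9 and in 19.98% of all windows. No match of one overlapped a match of the other in the members' windows, and neither stood in the windows of Dazl, Sycp2 and Tex101. Both motifs hold a CpG, and every member's window held more CpG than the median window. The shares over all windows are therefore not matched for CpG content. A match is a description of letters and not a bound site.

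The stretches before the start are shown for 5 members. Hormad1 and Dazl had the largest differences between genotypes among the members with over 100 counts in every library, Sycp2 had the largest response to pausing, and Mael and Sycp3 did not pass the test between genotypes. Capitals mark CACGTG and TCCCGC on either strand. Each is printed 5′ to 3′ on the strand of the gene and ends before the first annotated start. Hormad1 is chr3:95559427-95559676 on the plus strand, Dazl is chr17:50293637-50293870 on the minus strand, Sycp2 is chr2:178407686-178407908 on the minus strand, Sycp3 is chr10:88459337-88459568 on the plus strand and Mael is chr1:166238748-166238994 on the minus strand, all GRCm38.p6.
Hormad1: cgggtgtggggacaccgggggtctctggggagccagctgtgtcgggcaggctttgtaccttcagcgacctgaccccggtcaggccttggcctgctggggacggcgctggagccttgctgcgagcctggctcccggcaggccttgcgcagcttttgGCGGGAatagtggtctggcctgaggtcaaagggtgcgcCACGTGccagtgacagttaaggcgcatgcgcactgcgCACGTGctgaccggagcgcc
Dazl: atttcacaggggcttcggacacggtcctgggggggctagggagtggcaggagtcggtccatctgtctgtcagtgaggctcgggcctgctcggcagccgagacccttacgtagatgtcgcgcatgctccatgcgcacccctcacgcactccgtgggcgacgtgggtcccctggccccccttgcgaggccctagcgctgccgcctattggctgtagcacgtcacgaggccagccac
Sycp2: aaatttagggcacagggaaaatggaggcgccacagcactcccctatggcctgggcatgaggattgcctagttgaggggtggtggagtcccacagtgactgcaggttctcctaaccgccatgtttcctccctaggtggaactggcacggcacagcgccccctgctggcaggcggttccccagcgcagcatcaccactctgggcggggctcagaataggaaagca
Sycp3: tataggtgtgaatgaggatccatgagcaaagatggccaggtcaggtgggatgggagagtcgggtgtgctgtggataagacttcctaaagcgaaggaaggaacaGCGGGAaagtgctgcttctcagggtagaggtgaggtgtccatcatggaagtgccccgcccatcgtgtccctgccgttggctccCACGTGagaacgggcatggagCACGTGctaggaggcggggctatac
Mael: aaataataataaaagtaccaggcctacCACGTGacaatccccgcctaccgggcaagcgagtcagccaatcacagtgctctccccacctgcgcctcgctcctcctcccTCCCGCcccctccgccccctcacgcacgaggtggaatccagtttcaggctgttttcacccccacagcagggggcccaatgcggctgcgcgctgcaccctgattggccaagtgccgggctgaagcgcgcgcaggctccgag

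Counted from the RefSeq start, with -1 the base before it, Hormad1 had E-boxes at -57 and -20 and the E2F core at -95. Sycp3 had E-boxes at -64 and -43 and the core at -147. Mael had an E-box at -223 and the core at -143, with a further core after the start. The Dazl and Sycp2 stretches are printed without capitals because they hold neither motif. Hormad1, with the largest decrease in KO cells, and Sycp3 and Mael, which did not pass the test between genotypes, all held both motifs.

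Total estimated counts per library ran from 88377380 to 116646028. Dgcr8 RNA itself was 173 to 187 CPM (counts scaled to library size) in paused KO, 246 to 256 in normal KO, 50.8 to 56.2 in paused wild-type and 45.3 to 49.2 in normal wild-type cells, so it was higher in KO libraries. Its most abundant coding transcript, Dgcr8-201, had 50.1 to 68.6 TPM in KO libraries, against 11.3 to 17.1 TPM in wild type. Dgcr8-206, annotated as a processed transcript and not as coding, had 42.9 to 61.7 TPM in KO and 1.40 to 3.28 TPM in wild-type libraries. The scarce coding transcript Dgcr8-209 had 0 TPM in all 8 KO libraries, against 0.397 to 0.695 TPM in the others. As the deleted exons are not given, the summed level of Dgcr8 does not check the labels. The Y-linked gene Ddx3y had 13 to 44 counts in KO and 8326 to 10946 counts in wild-type libraries, and Eif2s3y and Uty differed in the same direction. The KO and wild-type lines therefore differed in more than Dgcr8, and genotype and line cannot be told apart. Within wild-type cells and within KO cells in normal culture, replicates 1 and 2 stood apart from 3 and 4. In normal wild-type cells the median chi-square per gene was 1.88 and 2.16 within these pairs and 7.54 to 10.6 across them, where counting alone would give 0.455. In paused KO cells replicate 1 was closest to 3, and 2 to 4. Values within replicates 1 and 2 and within 3 and 4 are therefore given for some, though not all, of the results where they differ. Ranges over the alternative settings are given for some others in the closing sections.

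The ESC markers Pou5f1, Sox2, Nanog, Esrrb and Zfp42 summed to 4536 to 4691 CPM in paused KO, 3824 to 3936 in normal KO, 3857 to 4068 in paused wild-type and 3682 to 3800 in normal wild-type cells, with all 5 detected in every library. The spermatid markers Prm1, Prm2, Tnp1 and Tnp2 summed to at most 0.0897 CPM in any library. In bulk RNA, fewer cells that use a gene and less RNA per cell cannot be told apart, as levels are taken over all cells. CPM and TPM are scaled to the library, so each level is a share of its RNA and not an amount per cell. A rise below is a larger share, and a fall is a smaller one.

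**Figure D1:**
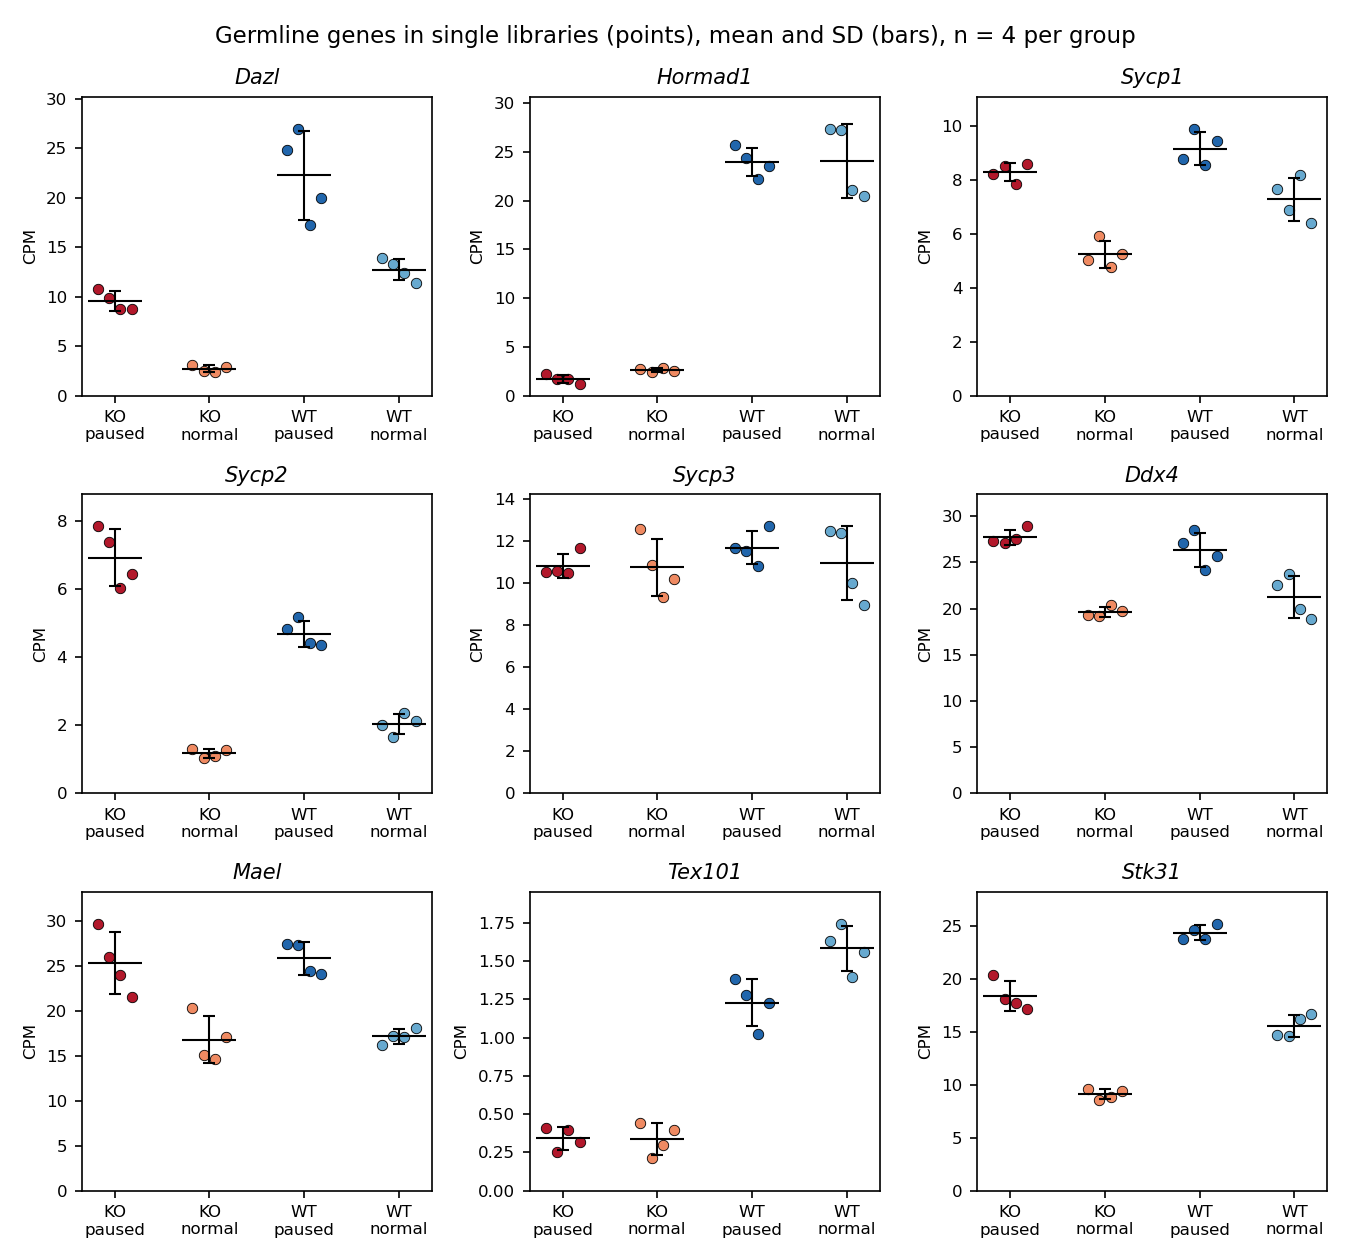
CPM of the 9 germline genes by group, with paused before normal culture and KO before wild type. Points are single libraries and lines are the mean with the SD of 4 libraries. Hormad1 sits below 3 CPM in all 8 KO libraries and above 20 in all 8 wild-type libraries, while Sycp3 lies at 8.92 to 12.7 CPM throughout.

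The first question is how the germline genes differed between KO and wild-type cells in normal culture. Hormad1, Dazl and Tex101 were 9.15, 4.70 and 4.73 times lower in KO cells. Sycp2, Stk31 and Sycp1 were 1.74, 1.71 and 1.39 times lower. Ddx4, Mael and Sycp3 did not pass the test. In all, 6 of the 9 genes fell and none rose in edgeR's quasi-likelihood test with Benjamini-Hochberg adjustment, where 34.1% of all genes tested fell and 34.1% rose. The KO and wild-type libraries did not overlap for the same 6 of 9, and for 60.5% of all genes tested. The median log2 fold change was -0.77 over the 9 genes and -0.03 over all genes tested.

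Hormad1 (chr3:95559677-95587671, plus strand, GRCm38, as for all gene positions here) encodes a HORMA domain protein of the meiotic chromosome axis that takes part in recombination and synapsis checkpoints. Its levels were 2.72, 2.41, 2.83 and 2.55 CPM in KO libraries in normal culture, against 27.4, 27.2, 21.1 and 20.4 CPM in wild-type libraries in normal culture. The highest KO library lay far below the lowest wild-type library. The log2 fold change was -3.19 ± 0.13 (SE; adjusted p = 9.3e-13). Per length, Hormad1 was 2.83 ± 0.265 TPM in KO and 23.8 ± 4.31 TPM in wild-type cells (SD, n = 4 each), so in wild-type cells it was the most abundant of the 9 genes per length by its mean, and in KO cells it was not.

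Dazl (chr17:50279395-50293636, minus strand) encodes an RNA-binding protein that germ cells need for development and that controls the translation of germline transcripts. It had 3.10, 2.53, 2.35 and 2.90 CPM in KO libraries, against 13.9, 13.3, 12.4 and 11.4 CPM in wild-type libraries, both in normal culture. No KO library came near the wild-type range. The log2 fold change was -2.23 ± 0.14 (adjusted p = 1.46e-10).

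Tex101 (chr7:24668007-24676675, minus strand), a membrane-anchored glycoprotein of the testis that sperm need for fertility, was the scarcest of the 9 by counts. It had 0.438, 0.212, 0.299 and 0.397 CPM in KO libraries, or 22 to 40 counts each, against 1.63, 1.75, 1.39 and 1.56 CPM in wild-type libraries, or 132 to 178 counts each. The groups did not overlap, and the log2 fold change was -2.24 ± 0.19 (adjusted p = 7.8e-09).

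The synaptonemal complex is the protein ladder that joins homologous chromosomes in meiosis. Sycp1 (chr3:102818499-102936100, minus strand) forms its transverse filaments. Sycp2 (chr2:178345293-178407685, minus strand) and Sycp3 (chr10:88459569-88473236, plus strand) form its lateral elements. In normal culture Sycp2 was 1.29, 1.02, 1.10 and 1.27 CPM in KO libraries, against 2.01, 1.65, 2.37 and 2.13 CPM in wild-type libraries, without overlap. Its log2 fold change was -0.80 ± 0.13 (adjusted p = 1.9e-05). Sycp1 was 5.03, 5.92, 4.76 and 5.27 CPM in KO libraries, against 7.66, 6.87, 8.20 and 6.43 CPM in wild-type libraries, also without overlap. Its log2 fold change was -0.48 ± 0.09 (adjusted p = 7.2e-05). Sycp3 overlapped, with 9.34 to 12.6 CPM in KO and 8.92 to 12.4 CPM in wild-type libraries, and its log2 fold change was -0.03 ± 0.10 (adjusted p = 0.82). The partners of this complex therefore gave unequal values, with Sycp1 and Sycp2 lower in KO cells and Sycp3 not.

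Stk31 (chr6:49395604-49469501, plus strand), a testis protein with a tudor domain and a kinase-like domain, had 9.53, 8.56, 8.83 and 9.41 CPM in KO libraries, against 14.7, 14.6, 16.2 and 16.6 CPM in wild-type libraries. The ranges were apart, and the log2 fold change was -0.77 ± 0.06 (adjusted p = 2.8e-09). The germ cell RNA helicase Ddx4 (chr13:112598333-112652475, minus strand), the mouse Vasa homologue, had 19.21 to 20.4 CPM in KO and 18.8 to 23.7 CPM in wild-type libraries. The piRNA pathway protein Mael (chr1:166201201-166238747, minus strand) had 14.6 to 20.3 CPM in KO and 16.1 to 18.1 CPM in wild-type libraries. Both overlapped, with log2 fold changes of -0.11 ± 0.07 for Ddx4 (adjusted p = 0.13) and -0.03 ± 0.10 for Mael (adjusted p = 0.80). Within replicates 1 and 2, however, Ddx4 fell by 0.26 ± 0.05 on the log2 scale (adjusted p = 0.00064), and it also passed without wild-type normal replicate 4 (-0.16, adjusted p = 0.026), while within replicates 3 and 4 it was 0.04 ± 0.05 (adjusted p = 0.50).

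Markers of 2-cell-like cells, the small ESC fraction that resembles the 2-cell embryo, moved with the genotype. The 5 defining markers Zscan4c, Zscan4d, Tcstv1, Tcstv3 and Zfp352 summed to 0.351 to 0.451 CPM in normal KO and 71.2 to 81.4 CPM in normal wild-type libraries. In paused cultures they summed to 0.0216 to 0.0569 CPM in KO and 38.1 to 75.6 CPM in wild-type libraries. Tcstv3 was at 0 in all KO libraries. All 14 genes of the longer 2-cell-like list were lower in KO cells in both cultures. They stood against 34.1% of all genes tested in normal culture and 34.5% in paused culture. Their part in the differences of the germline genes between genotypes was not tested.

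In paused cultures the same comparison of KO with wild-type cells gave 4 lower members, Hormad1, Tex101, Dazl and Stk31, and 1 higher member, Sycp2. Of all genes tested, 34.5% were lower and 30.8% higher. The KO and wild-type libraries did not overlap for 5 of the 9 and for 63.4% of all genes tested. The median was -0.14 for the members and -0.03 for all genes tested.

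Hormad1 had 2.19, 1.65, 1.74 and 1.23 CPM in paused KO libraries, against 25.7, 24.4, 22.2 and 23.5 CPM in paused wild-type libraries. This was the widest gap of the 9 genes in either culture, 14.1 times lower in KO cells, with a log2 fold change of -3.82 ± 0.14 (adjusted p = 2.5e-13). Sycp2 had 7.86, 7.38, 6.04 and 6.44 CPM in paused KO libraries, against 4.82, 5.17, 4.41 and 4.37 CPM in paused wild-type libraries. It was thus higher in KO cells in all 4 libraries, where in normal culture it was lower in all 4, and its log2 fold change was 0.56 ± 0.11 (adjusted p = 0.00023). Dazl had 10.8, 9.88, 8.73 and 8.72 CPM in paused KO libraries, against 24.9, 27.0, 17.2 and 19.96 CPM in paused wild-type libraries. It was 2.34 times lower in KO cells, with no overlap (log2 fold change -1.23 ± 0.12, adjusted p = 1.3e-07).

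Tex101 had 0.410, 0.250, 0.398 and 0.315 CPM in paused KO libraries, against 1.39, 1.28, 1.02 and 1.22 CPM in paused wild-type libraries. It was 3.60 times lower in KO cells, a log2 fold change of -1.85 ± 0.19 (adjusted p = 1.2e-07). Stk31 had 20.4, 18.1, 17.7 and 17.1 CPM in paused KO libraries, against 23.8, 24.6, 23.7 and 25.2 CPM in paused wild-type libraries, and fell by 0.41 ± 0.06 on the log2 scale (adjusted p = 8.9e-06). Both were lower in every KO library than in any wild-type library. Sycp1, Sycp3, Ddx4 and Mael overlapped between genotypes, with log2 fold changes of -0.14, -0.11, 0.07 and -0.03, and did not pass the test. Ddx4 passed within replicates 3 and 4 (0.19 ± 0.05, adjusted p = 0.0054) and was -0.03 within replicates 1 and 2, and Sycp1 passed with length-scaled TPM counts (-0.28 ± 0.11, adjusted p = 0.029).

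**Figure D2:**
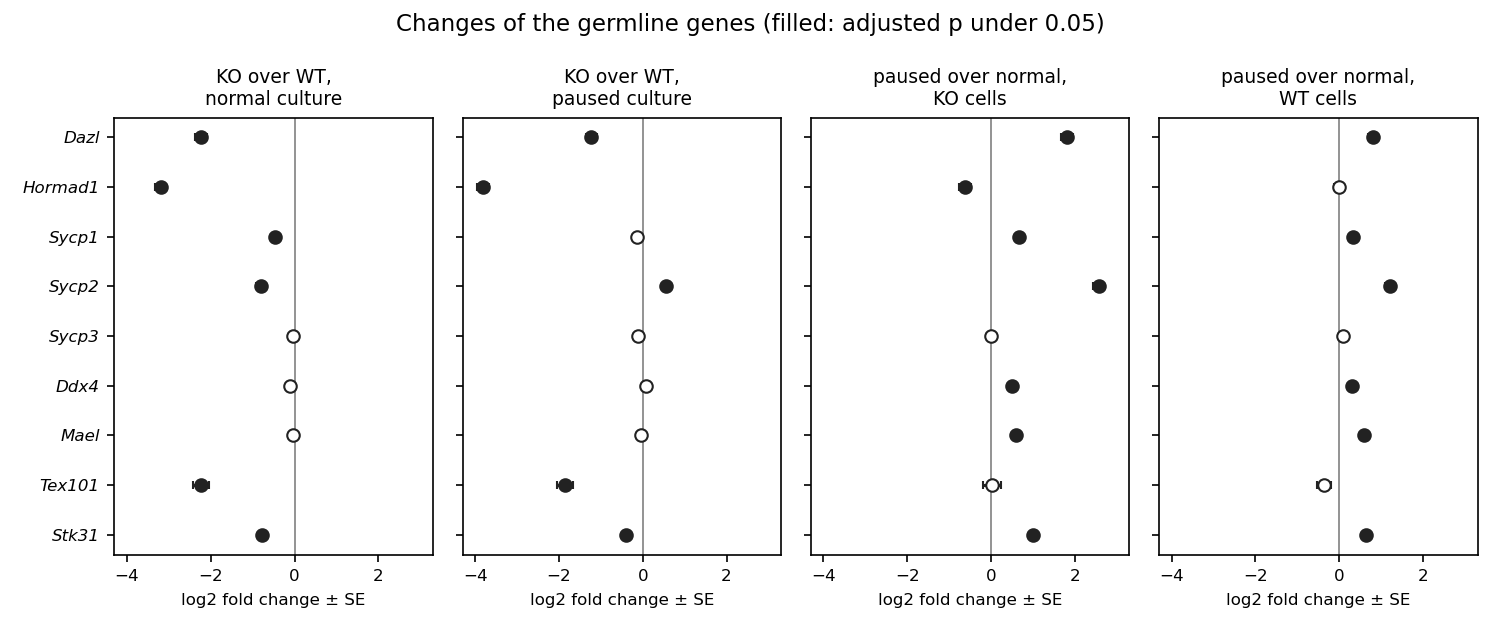
Log2 fold changes with their SE for the 9 genes in 4 contrasts, KO over wild type in either culture, and paused over normal culture in either genotype. Filled circles passed an adjusted p of 0.05 and open circles did not. Hormad1 lies farthest to the left in both genotype contrasts, and Sycp2 farthest to the right in both pausing contrasts.

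The second question is how these genes responded to pausing. In KO cells 6 of the 9 rose, Sycp2, Dazl, Stk31, Sycp1, Mael and Ddx4, and Hormad1 fell. Of all genes tested 34.4% rose and 32.8% fell in this comparison, and 7 of the 9 genes did not overlap between the cultures, against 64% of all genes. The median log2 fold change was 0.59 over the members and 0.02 over all genes tested. The 9 genes together summed to 104 to 117 CPM in paused KO libraries, against 64.5 to 74.3 CPM in KO libraries in normal culture. The summed ESC markers given above were higher in paused than in normal KO libraries too, and the primordial germ cell markers Prdm1, Nanos3, Dnd1, Kit and Dppa3 summed to 335 to 353 CPM in paused and 222 to 246 CPM in normal KO libraries. Of these, Kit and Prdm1 rose, with log2 fold changes of 0.61 ± 0.06 and 0.99 ± 0.13, while Nanos3 (-0.90 ± 0.16), Dnd1 (-0.41 ± 0.05) and Dppa3 (-0.95 ± 0.34) fell. Their part in the result was not tested.

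Sycp2 rose most. Its 6.04 to 7.86 CPM in paused KO libraries stood against 1.02 to 1.29 CPM in normal KO libraries, 5.93 times higher, with a log2 fold change of 2.57 ± 0.12 (adjusted p = 3.7e-12). Dazl rose 3.51 times, with 8.72 to 10.8 CPM in paused and 2.35 to 3.10 CPM in normal KO libraries, a log2 fold change of 1.81 ± 0.14 (adjusted p = 2.4e-09). Stk31 rose 2.02 times, with 17.1 to 20.4 CPM in paused and 8.56 to 9.53 CPM in normal KO libraries (log2 fold change 1.01 ± 0.06, adjusted p = 7.5e-11). For all of these genes, every paused library lay above every normal one.

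Sycp1 had 7.86 to 8.60 CPM in paused and 4.76 to 5.92 CPM in normal KO libraries, Mael 21.5 to 29.7 and 14.6 to 20.3 CPM, and Ddx4 27.1 to 29.0 and 19.21 to 20.4 CPM, paused before normal. These were smaller responses, with log2 fold changes of 0.66 ± 0.08, 0.59 ± 0.10 and 0.50 ± 0.06 and adjusted p of 1.4e-06, 5.3e-05 and 1.9e-06. Hormad1 went the other way. Its 1.23 to 2.19 CPM in paused KO libraries lay below the 2.41 to 2.83 CPM of normal KO libraries, and its log2 fold change was -0.63 ± 0.14 (adjusted p = 0.00092). Tex101 and Sycp3 overlapped, with log2 fold changes of 0.03 ± 0.22 and 0.01 ± 0.10.

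In wild-type cells the same 6 genes rose with pausing and none fell. Of all genes tested, 33.3% rose and 27.5% fell. Libraries of the 2 cultures did not overlap for 7 of the 9, Tex101 in addition, and for 54% of all genes. The median was 0.33 for the members and 0.04 for all genes. The 9 genes summed to 137 to 160 CPM in paused wild-type libraries, against 104 to 119 CPM in normal wild-type libraries. As each culture contrast holds a group that the genotype contrasts also use, the 4 sets of values are not independent of each other.

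Sycp2 had the largest fold here too, with 4.37 to 5.17 CPM in paused and 1.65 to 2.37 CPM in normal wild-type libraries (log2 fold change 1.20 ± 0.12, adjusted p = 5.8e-08). Within replicates 1 and 2 this change was 1.45 and within 3 and 4 it was 0.95. Dazl had 17.2 to 27.0 CPM in paused and 11.4 to 13.9 CPM in normal wild-type libraries, a log2 fold change of 0.80 ± 0.12 (adjusted p = 1.9e-05). Stk31 and Mael followed with 0.65 ± 0.06 and 0.59 ± 0.10, and Sycp1 and Ddx4 with 0.33 ± 0.08 and 0.31 ± 0.06. Sycp2, Dazl and Stk31 thus had the 3 largest fold changes in both genotypes.

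Hormad1 gave no response in wild-type cells that the test could find, with 22.2 to 25.7 CPM in paused and 20.4 to 27.4 CPM in normal libraries (-0.01 ± 0.11, adjusted p = 0.97). Sycp3 had 10.8 to 12.7 CPM in paused and 8.92 to 12.4 CPM in normal wild-type libraries, a log2 fold change of 0.09 ± 0.10 (adjusted p = 0.45). Within replicates 3 and 4 it rose by 0.30 ± 0.09 (adjusted p = 0.012), and within replicates 1 and 2 it was -0.10. Tex101 had 1.02 to 1.39 CPM in paused and 1.39 to 1.75 CPM in normal wild-type libraries, below in every case by a narrow margin. Its log2 fold change of -0.37 ± 0.17 did not pass (adjusted p = 0.070), but it passed with the DESeq2 Wald test (-0.40, adjusted p = 0.033), in a fit of these groups alone (-0.41, adjusted p = 0.017), and without KO normal replicate 2 (-0.38, adjusted p = 0.040) or wild-type normal replicate 3 (-0.45, adjusted p = 0.044).

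The third question is whether the response to pausing differed between the genotypes. It did for 5 of the 9 genes by the interaction term, that is the change in KO cells minus the change in wild-type cells. Of all genes tested, 17.4% had a higher and 24.5% a lower response in KO cells. Sycp2 responded more in KO cells, by 1.37 ± 0.17 on the log2 scale (adjusted p = 5.5e-06), and so did Dazl, by 1.01 ± 0.18 (adjusted p = 0.00029). Stk31 differed by 0.37 ± 0.09 (adjusted p = 0.0024) and Sycp1 by 0.33 ± 0.12 (adjusted p = 0.032).

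Hormad1 had the lower response in KO cells, by -0.62 ± 0.18 (adjusted p = 0.012). Within replicates 3 and 4 this difference was -0.98 ± 0.16 (adjusted p = 0.00025), and within replicates 1 and 2 it was -0.31 ± 0.14 and did not pass (adjusted p = 0.10). The Sycp1 difference was 0.43 ± 0.16 within replicates 3 and 4 (adjusted p = 0.045) and 0.25 ± 0.14 within replicates 1 and 2 (adjusted p = 0.18). It also lost its call, with adjusted p of 0.052 to 0.067, when 1 library was left out, which held for KO normal replicates 1 and 3, KO paused replicates 2 and 4, wild-type normal replicate 1 and wild-type paused replicates 1 and 3. Ddx4 did not pass (0.19 ± 0.09, adjusted p = 0.11), but did within replicates 1 and 2 (0.23, adjusted p = 0.024) and without wild-type normal replicate 3 (0.26, adjusted p = 0.036) or 4 (0.24, adjusted p = 0.029). Mael responded almost equally, with an interaction of 0.00 ± 0.14, and for Sycp3 and Tex101 it was -0.08 ± 0.14 and 0.39 ± 0.28.

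Set side by side over the 4 groups, the genes fell into unlike orders. Dazl and Stk31 were lowest in normal KO cells and highest in paused wild-type cells. For Stk31 the libraries of neighbouring groups did not overlap, with 8.56 to 9.53, 14.6 to 16.6, 17.1 to 20.4 and 23.7 to 25.2 CPM in normal KO, normal wild-type, paused KO and paused wild-type cells. Dazl in paused KO cells, at 9.53 ± 0.997 CPM, came under normal wild-type cells, at 12.8 ± 1.10 CPM (SD, n = 4 each), with no overlap. Sycp2 was highest in paused KO cells and lowest in normal KO cells, so KO cells spanned the wild-type range. Hormad1 and Tex101 were ordered by genotype first. Ddx4 and Mael were ordered by culture first, with the genotypes overlapping. Sycp3 had no order beyond its spread.

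Transcripts within a gene gave a further difference for Dazl. Of the counts of Dazl, 14.5%, 17.2%, 18.1% and 18.1% in paused KO libraries fell on the annotated retained-intron transcripts Dazl-203, Dazl-205 and Dazl-206, against 6.65%, 7.20%, 4.21% and 10.6% in normal KO libraries. In wild-type cells the share was 11.04%, 12.7%, 15.3% and 13.4% in paused libraries, against 5.93%, 2.44%, 4.63% and 5.43% in normal libraries. Paused libraries lay above normal ones in both genotypes.

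Sycp3, whose summed level did not pass the test in any of the 5 contrasts over all 16 libraries, differed in the share of its transcript Sycp3-203, which starts downstream of Sycp3-201. This share was 12.1% to 19.0% of Sycp3 counts in paused KO, 20.9% to 30.8% in normal KO, 21.1% to 25.1% in paused wild-type and 39.5% to 47.1% in normal wild-type cells. Paused libraries lay below normal ones in both genotypes. Shares of transcripts with common exons are estimates of kallisto, and these 2 genes were picked after their values were seen, so no test is given. Exons of Sycp3 overlap Chpt1 on the other strand, which had up to 1779 counts, and no source used here states the strand setting, so reads of these genes may be mixed.

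The genes whose pattern over the 16 libraries was most like a member's were found among 16944 protein-coding genes, by the root mean square difference of log2 CPM centred on each gene's mean. Closest to Dazl were Sh3tc2, at 0.15, Dnah11 and Thrb. Closest to Hormad1 were Gja1, at 0.28, Fndc1 and Arg2, and closest to Sycp2 were Nr3c2, at 0.20, Grid2ip and Macrod1. For Ddx4 it was Rab22a, at 0.06, and for Stk31 Apoe, at 0.11. No member was among the 3 nearest of another member. The closest pairs of members were Ddx4 with Mael and Ddx4 with Sycp1, both at 0.20. Mael ranked 1345 by closeness to Ddx4, and Ddx4 ranked 305 by closeness to Mael and 363 by closeness to Sycp1. The nearest rank of any member was that of Sycp1 for Stk31, 232.

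Other germline genes were read from lists of meiotic chromosome genes, piRNA genes and genes of germ cell specification and meiotic entry. Of 31 meiotic chromosome genes tested, 18 fell and 8 rose in KO against wild-type cells in normal culture, and 16 fell and 6 rose in paused culture. Medians were -0.28 and -0.37, against -0.03 over all genes tested in each. With pausing, 12 rose and 9 fell in KO cells, and 15 rose and 8 fell in wild-type cells, with medians of 0.19 and 0.25. For the interaction 4 were higher and 9 lower, against 17.4% higher and 24.5% lower of all genes tested. These counts stand against the shares of all genes tested, which in KO against wild-type cells were 34.1% lower and 34.1% higher in normal culture and 34.5% lower and 30.8% higher in paused culture. With pausing, 34.4% rose and 32.8% fell in KO cells, and 33.3% rose and 27.5% fell in wild-type cells.

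Rec8, the meiotic cohesin subunit, stood opposite to the members that fell in KO cells. It averaged 14.5 ± 1.22 CPM in paused KO, 21.3 ± 2.25 in normal KO, 3.25 ± 0.301 in paused wild-type and 3.57 ± 0.394 in normal wild-type cells (SD, n = 4 each). It rose in KO cells by 2.58 ± 0.10 in normal and 2.16 ± 0.10 in paused culture (log2, adjusted p = 8.9e-14 and 1.1e-12). Tex12, a central element protein of the synaptonemal complex, fell by 2.35 ± 0.29 in KO cells in normal culture and by 1.71 ± 0.35 in paused culture. It averaged only 0.0906 CPM in normal KO and 0.0527 CPM in paused KO libraries, below Tex101, so these values rest on few counts. Terb2, of the meiotic telomere complex, fell by 1.70 ± 0.20 and 1.69 ± 0.19. With pausing, the crossover genes Msh5 and Hfm1 rose in both genotypes on the log2 scale, by 1.75 ± 0.18 and 1.63 ± 0.08 in KO and by 1.92 ± 0.18 and 1.47 ± 0.08 in wild-type cells. Meiob, which binds single-stranded DNA in recombination, rose by 2.38 ± 0.26 with pausing in KO and by 1.40 ± 0.25 in wild-type cells. It too was scarce, at 0.128 CPM in normal KO and 0.209 CPM in normal wild-type libraries on average. Majin, of the telomere complex, rose by 2.17 ± 0.17 in paused wild-type cells, with an interaction of -1.52 ± 0.25 (adjusted p = 9.7e-05). These rises with pausing were named for their size and do not stand for the list. In it, 12 genes rose and 9 fell in KO cells, and 15 rose and 8 fell in wild-type cells.

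Of 20 piRNA and transposon defence genes, 7 fell and 7 rose in KO cells in normal culture, and 11 fell and 7 rose in paused culture, with medians of -0.11 and -0.36. With pausing, 8 rose and 8 fell in KO cells and 10 rose and 5 fell in wild-type cells, with medians of 0.05 and 0.33. The all-gene shares with pausing were 34.4% higher and 32.8% lower in KO and 33.3% higher and 27.5% lower in wild-type cells. The 7 of 20 in each direction in normal culture are close to the 34.1% of all genes in each direction, and the paused-culture counts stand against 34.5% lower and 30.8% higher. The largest difference was that of Fkbp6, a chaperone partner in piRNA and meiotic chromosome function. It had 0.140, 0.137, 0.0758 and 0.162 CPM in paused KO libraries, against 10.8, 9.99, 10.8 and 11.3 CPM in paused wild-type libraries. In normal culture it had 0.0767, 0.0482, 0.0399 and 0.0215 CPM in KO libraries, against 11.7, 10.96, 10.8 and 9.85 CPM in wild-type libraries. KO libraries held 54 counts in paused and 18 counts in normal culture in all, and the log2 fold changes were -6.37 ± 0.15 and -7.83 ± 0.17 (adjusted p = 6.8e-16 and 1.9e-16). Asz1, another piRNA gene, averaged 0.00254 CPM in paused KO, 0.02005 in normal KO, 0.294 in paused wild-type and 0.238 in normal wild-type cells, too few counts in KO libraries for a fold. The tudor gene Tdrd1 rose with pausing in KO cells by 0.74 ± 0.09 and in wild-type cells by 1.03 ± 0.09. Piwil4 went the other way, at -0.85 ± 0.24 in KO and -1.13 ± 0.24 in wild-type cells. With pausing in wild-type cells, Tdrd9 was at 1.22 ± 0.17 and Henmt1 at -0.93 ± 0.18.

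Of 17 specification and meiotic entry genes tested, 10 rose and 7 fell in KO cells in normal culture, and 10 rose and 4 fell in paused culture, with medians of 0.28 and 0.28. The shares over all genes were 34.1% higher and 34.1% lower in normal culture, and 30.8% higher and 34.5% lower in paused culture. With pausing, 6 rose and 8 fell in KO cells and 7 rose and 4 fell in wild-type cells, with medians of -0.16 and 0.15. The all-gene shares with pausing were 34.4% higher and 32.8% lower in KO and 33.3% higher and 27.5% lower in wild-type cells. Stra8, the retinoic acid-induced factor of meiotic entry, averaged 39.5 ± 7.90 CPM in paused KO, 69.1 ± 12.1 in normal KO, 9.30 ± 2.64 in paused wild-type and 9.88 ± 1.36 in normal wild-type cells. It rose in KO cells by 2.81 ± 0.21 in normal and by 2.09 ± 0.20 in paused culture. Gm4969, listed by RefSeq as Meiosin, the partner of Stra8, fell by 2.12 ± 0.13 in KO cells and 1.97 ± 0.13. Boll, a relative of Dazl, rose with pausing by 1.67 ± 0.10 in KO and 0.75 ± 0.10 in wild-type cells. Kit, a receptor of germ cells, rose in KO cells by 1.67 ± 0.07 in normal and 1.68 ± 0.06 in paused culture. Dppa3, a factor of oocytes and primordial germ cells, fell by 4.32 ± 0.26 in KO cells and 3.44 ± 0.29.

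**Figure D3:**
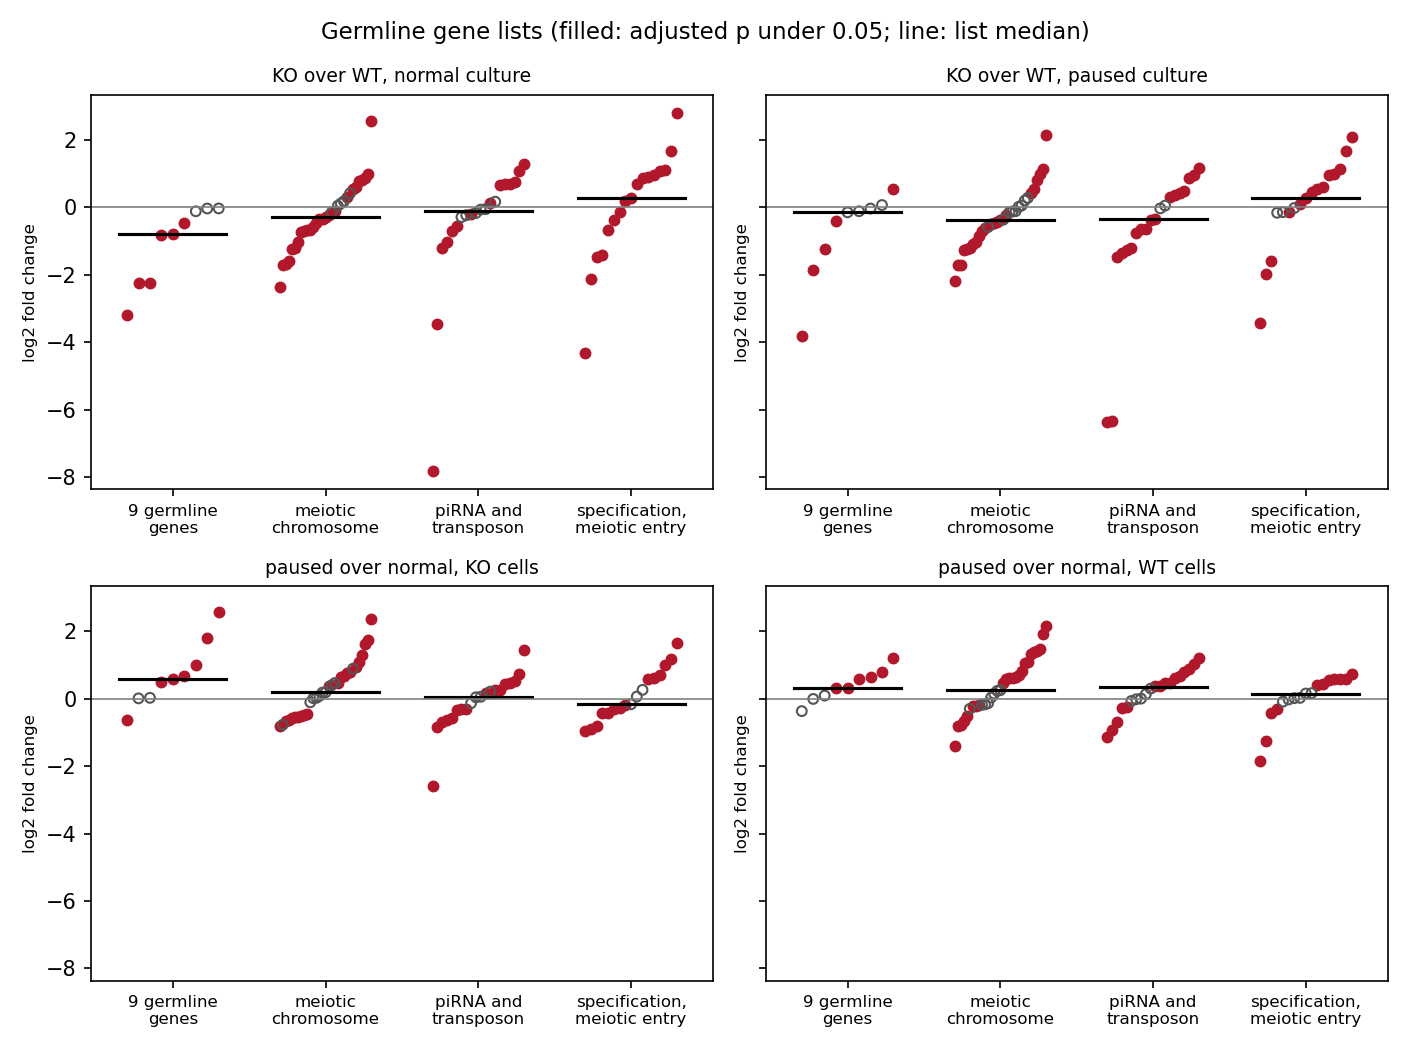
Log2 fold changes of the 9 members and of the tested genes of 3 germline lists, in 4 contrasts. Each point is a gene, filled where the adjusted p was under 0.05, and the line is the median of the list. In both genotype contrasts the lowest points of the piRNA list are Fkbp6 and Asz1, and for Asz1 the position rests on very few counts in KO libraries.

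The machinery that methylates DNA was measured in the same libraries. In KO against wild-type cells, 8 of 20 genes fell and 7 rose in normal culture, and 12 fell and 7 rose in paused culture, with medians of -0.04 and -0.27, against -0.03 over all genes tested in each. Of all genes tested 34.1% fell and 34.1% rose in normal culture, to which the 8 and 7 of 20 are close, and 34.5% fell and 30.8% rose in paused culture. With pausing, 34.4% of all genes tested rose and 32.8% fell in KO cells, and 33.3% rose and 27.5% fell in wild-type cells. Of the 20 methylation genes, 6 rose and 9 fell in KO cells and 9 rose and 5 fell in wild-type cells. Their medians were -0.11 and -0.06. These are RNA levels, and their part in the levels of the germline genes was not tested.

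Dnmt3b, a de novo methyltransferase, averaged 69.7 ± 9.52 CPM in paused KO, 89.4 ± 10.6 in normal KO, 402 ± 75.0 in paused wild-type and 477 ± 46.4 in normal wild-type cells. It fell by 2.53 ± 0.14 in KO cells in paused and by 2.42 ± 0.14 in normal culture. Dnmt3l, the cofactor of the de novo enzymes, averaged 269 ± 26.1, 148 ± 20.7, 687 ± 50.01 and 759 ± 41.6 CPM in the same order. It fell by 1.35 ± 0.09 in KO cells in paused and by 2.35 ± 0.09 in normal culture. For Dnmt3a and Dnmt1, KO against wild-type cells gave 0.10 ± 0.07 and 0.19 ± 0.04 in normal culture. In paused culture the values were -1.20 ± 0.07 and -0.20 ± 0.04. A link of these levels to Hormad1, Dazl and Tex101 was not tested.

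Dnmt3a, the other de novo enzyme, averaged 77.8 ± 9.02 CPM in paused KO, 193 ± 7.75 in normal KO, 179 ± 12.9 in paused wild-type and 180 ± 7.98 in normal wild-type cells. It fell by 1.31 ± 0.07 with pausing in KO cells and did not pass in wild-type cells (-0.01 ± 0.07), an interaction of -1.30 ± 0.10 (adjusted p = 2.9e-08). The maintenance enzyme Dnmt1 averaged 377 ± 20.02, 450 ± 7.21, 433 ± 8.96 and 395 ± 7.92 CPM in these groups, with log2 changes by pausing of -0.25 ± 0.04 in KO and 0.13 ± 0.04 in wild-type cells. Its partner Uhrf1 fell by 0.88 ± 0.08 with pausing in KO cells, with an interaction of -0.72 ± 0.11. Tet1, which oxidises methylated cytosine, fell by 0.69 ± 0.11 in KO cells in normal and by 0.91 ± 0.11 in paused culture, and Tet2 rose with pausing by 0.67 ± 0.10 in KO and 0.31 ± 0.10 in wild-type cells.

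**Figure D4:**
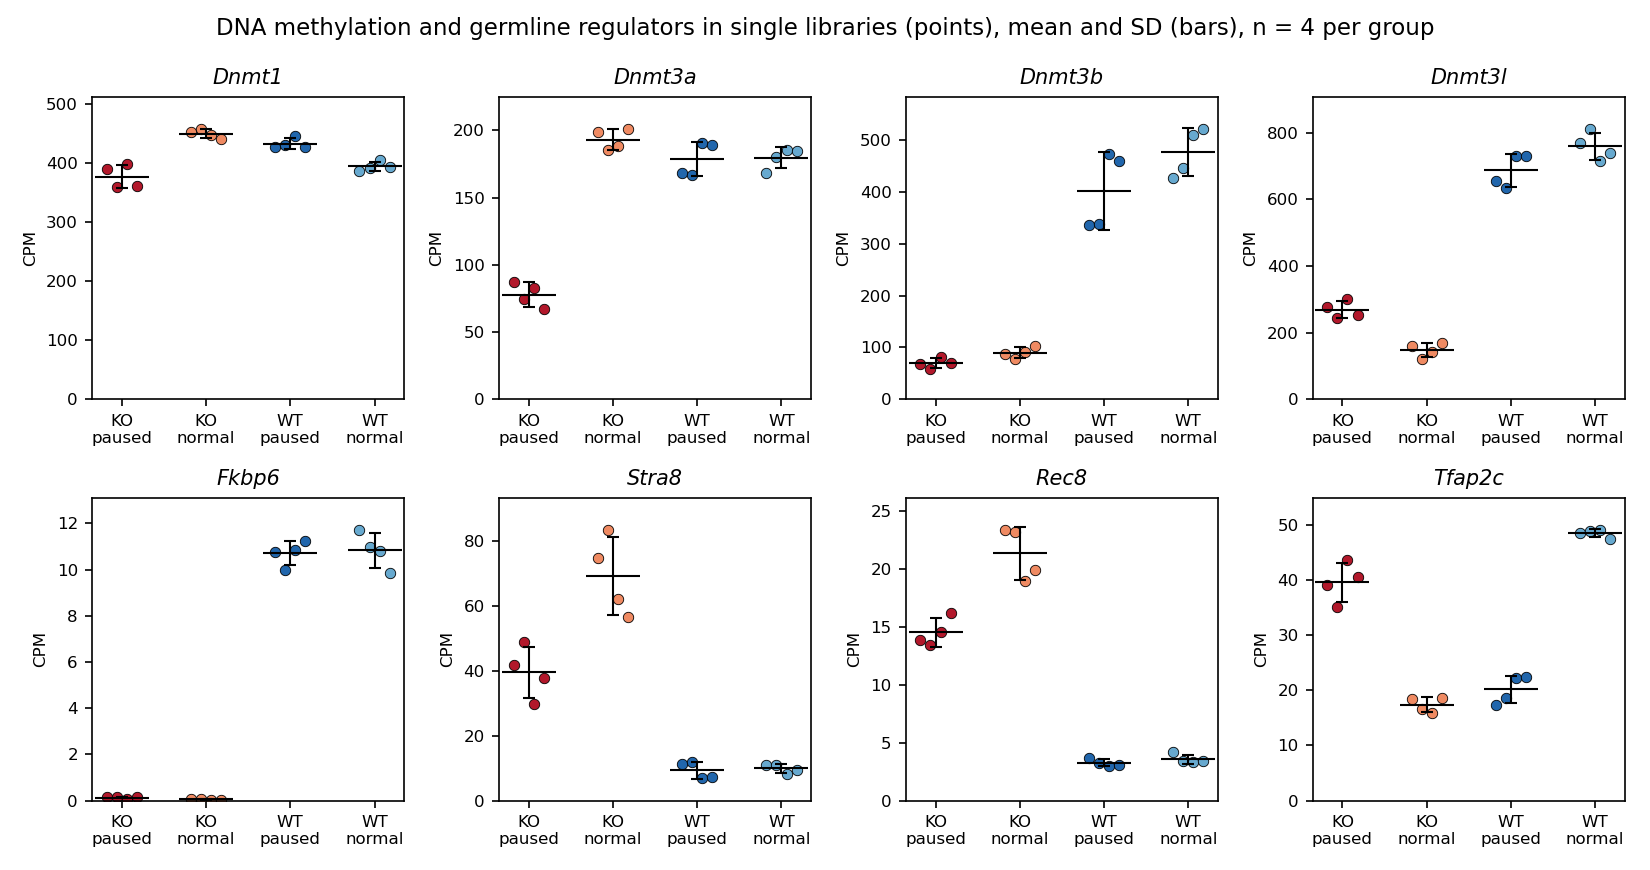
CPM of 4 DNA methylation genes and 4 germline genes outside the group of 9, by group. Points are single libraries and lines the mean with the SD of 4 libraries. Dnmt3b is at most 102 CPM in KO libraries and at least 336 CPM in wild-type libraries, and Dnmt3a is lowest in paused KO cells.

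Of 20 genes of PRC1.6 and H3K9 methylation, 10 fell and 7 rose in KO against wild-type cells in normal culture, and 10 fell and 5 rose in paused culture. Of all genes tested 34.1% fell and 34.1% rose in normal culture, so that the 7 of 20 that rose are close to that share, and 34.5% fell and 30.8% rose in paused culture. With pausing, 34.4% of all genes tested rose and 32.8% fell in KO cells, and 33.3% rose and 27.5% fell in wild-type cells. Of the 20 listed genes, 8 rose and 9 fell in KO cells and 6 rose and 9 fell in wild-type cells. All 4 medians lay between -0.14 and -0.04. Pcgf6, the core subunit of PRC1.6, fell with pausing by 0.46 ± 0.05 in KO and by 0.32 ± 0.05 in wild-type cells. E2f6, the factor that binds the E2F core, rose by 0.40 ± 0.06 in KO and by 0.75 ± 0.06 in wild-type cells, and its partner Tfdp1 fell by 0.93 ± 0.05 and 0.61 ± 0.05. The E-box partners moved little, with pausing changes of Mga of 0.23 ± 0.08 in KO and 0.09 ± 0.08 in wild-type cells, and of Max of -0.14 ± 0.03 and 0.09 ± 0.03. Setdb1, an H3K9 methyltransferase of germline promoters, rose by 0.56 ± 0.07 in KO and 0.40 ± 0.07 in wild-type cells.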

How the data were processed

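Poly(A) RNA of 16 ESC libraries, 4 per group, was sequenced by the authors. The labels give 800000 cells per sample and 1 µg of RNA. Transcripts were quantified with kallisto on GRCm38, per the submitters' processing notes, and the kallisto version is not given in the sources used here. The deposited tables hold, per the file headers, estimated counts, TPM and effective lengths per transcript. Of 118489 transcripts, 116728 matched GENCODE M21, and the 1761 others, 0.656% to 0.712% of the counts of a library, were left out.

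For each gene the remaining counts were added up and rounded. Genes were filtered with filterByExpr at a minimum count of 10 and libraries were scaled by TMM (factors 0.933 to 1.07). All 16 libraries entered 1 fit of edgeR 4.0.16 in R 4.3.3 with the robust quasi-likelihood test, 1 mean per group and 5 contrasts. Tests were two-sided, with Benjamini-Hochberg adjustment over 18944 genes and a threshold of 0.05, to which "rose" and "fell" refer. The SE is the absolute log2 fold change over the square root of F. CPM and TPM are given with the SD of 4 libraries. The fit was also run on simulated data with few genes changed, in paused KO libraries alone. That setting does not cover changes as broad as those called here. Among the members, precision is lowest for Tex101, with 22 to 42 counts per KO library.

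The 9 genes and the lists were chosen with earlier results of these data known, so no p is given over a list. From each list, up to 4 genes with the largest change per contrast and some regulators were named by rule. Only some of these are printed here. Alternatives were DESeq2 1.42.0, its size factors, no filter, length-scaled TPM, coding transcripts alone, replicates 1 and 2 or 3 and 4 alone, a term for replicates 1 and 2 against 3 and 4, a fit of the groups compared alone, a replicate block and leaving out each library. Promoter windows are from RefSeq.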

Additional observations from a re-analysis of the deposited data

Results flagged for a closer look

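In paused KO cells, 1 library stood apart for Sycp3, at 11.67 CPM against 10.46 to 10.58 CPM in the other libraries of that group. The gap was 0.903 of the range of the 4 libraries, which is above the limit of Dixon's test at 95%. This was 1 of 36 groups examined, and chance sets apart about 1 in 20 groups.

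For 5 genes the response to pausing differed between KO and wild-type cells in the test of the difference itself (edgeR's quasi-likelihood test, Benjamini-Hochberg adjustment). On the log2 scale, KO minus wild type, these differences were 1.365 for Sycp2, 1.007 for Dazl, 0.3655 for Stk31, 0.332 for Sycp1 and -0.6217 for Hormad1. Of all genes tested, 17.4% had a higher and 24.5% a lower response in KO cells. By the same test within replicates 1 and 2, Sycp1 (adjusted p = 0.18) and Hormad1 (adjusted p = 0.10) did not pass. The Sycp1 call was also lost in other settings given above and below.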

How the results depend on the processing

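Over 26 alternative settings, the 29 called log2 fold changes of the 9 genes gave 749 values, of which 739 kept direction and call, 10 lost the call (9 for the Sycp1 and 1 for the Hormad1 interaction) and 0 reversed. Some called sizes varied. For pausing in wild-type cells, Dazl ran from 0.64 to 0.93 and Mael from 0.46 to 0.72. Hormad1 ran from -0.85 to -0.43 for pausing in KO cells. For KO against wild type in normal culture it ran from -3.41 to -2.95. Counts of called genes were 7 of 9 for pausing in KO cells in every setting, 6 to 7 for pausing in the wild type, 4 to 6 for the interaction, 6 to 7 for KO against wild type in normal culture and 5 to 6 in paused culture. In the same order, all genes called were 11951 to 13001, 10785 to 11879, 7075 to 8572, 11993 to 13223 and 11384 to 12679. The main fit tested 18944 genes and called 12727, 11505, 7936, 12923 and 12385 of them. Steady counts of members therefore stand beside broad calls over all genes. Uncalled values gained a call in 12 of 412 cases and changed sign in 51, none past the threshold, and the cause was not tested. Sign changes, in log2, were as follows. Within replicates 1 and 2, Ddx4 was -0.0312 and Mael 0.0193 for KO against wild type in paused culture, Mael was 0.0863 in normal culture, and Sycp3 was -0.1481 for pausing in KO and -0.0976 in wild-type cells. Within replicates 3 and 4, Ddx4 was 0.044 and Sycp3 0.0399 for KO against wild type in normal culture, Hormad1 was 0.1308 for pausing in wild-type cells and Mael 0.0698 for the interaction. With length-scaled TPM counts, Hormad1 was 0.0101 for pausing in wild-type cells, and Sycp3 was 0.0065 for KO against wild type in normal culture and -0.0107 for pausing in KO cells. Sycp3 for pausing in KO cells was -0.0081 without a filter and -0.004 in a fit of these groups alone. The Mael interaction was 0.0228 with DESeq2 size factors, 0.0227 with the DESeq2 Wald test and 0.0324 with coding transcripts alone. With a term for replicates 1 and 2 against 3 and 4 it was 0.0015, and Hormad1 for pausing in wild-type cells was 0.0028.

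Leaving out 1 library in turn gave -0.0869 to 0.0618 for Hormad1 under pausing in wild-type cells, -0.1321 to 0.0276 for Mael and -0.1113 to 0.0405 for Sycp3 for KO against wild type in normal culture, -0.1088 to 0.0456 for Mael in paused culture and -0.0755 to 0.1017 for its interaction. It gave -0.1507 to 0.001 for the Sycp3 interaction, and -0.0489 to 0.093 for Sycp3 and -0.1444 to 0.1757 for Tex101 under pausing in KO cells.

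Libraries with the same replicate number correlated at -0.23 to 0.42 in their deviations from the group means, over 0.1 in 13 of 24 pairs, with a median of 0.11, against 13 of 72 pairs and a median of -0.02 for different numbers. Of 16 libraries 8 were closest to their own number. This hints at shared numbers, but the labels state no pairing and not every pair was over 0.1, so the block is given only as an alternative. With a replicate block, counts of called genes were 7, 6, 5, 6 and 5 for pausing in KO, pausing in wild type, the interaction, the genotype difference in normal culture and that in paused culture, and no call of a member changed. Over all genes with the block, 6533 rose and 6247 fell for pausing in KO, and 6361 and 5240 in wild-type cells. The interaction was higher for 3322 and lower for 4768 genes. KO cells were higher for 6539 and lower for 6474 genes in normal culture, and for 5891 and 6550 in paused culture. The Hormad1 change under pausing in wild-type cells was 0.0032 and the Mael interaction 0.0058 with the block. Among the members, depth limits Tex101 most.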

Other observations

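Tfap2c, a transcription factor of primordial germ cells and trophoblast, responded to pausing in opposite directions. It had 39.6 ± 3.48 CPM in paused and 17.4 ± 1.37 CPM in normal KO cells, and 20.2 ± 2.52 CPM in paused and 48.6 ± 0.723 CPM in normal wild-type cells (SD, n = 4 each). It rose by 1.19 ± 0.08 in KO and fell by 1.27 ± 0.08 in wild-type cells on the log2 scale, an interaction of 2.46 ± 0.11 (adjusted p = 1.0e-10, edgeR). Mei1, a gene of meiotic double-strand breaks, went the opposite way. It fell by 0.55 ± 0.20 with pausing in KO cells and rose by 1.42 ± 0.20 in wild-type cells, an interaction of -1.97 ± 0.28 (adjusted p = 2.4e-05).

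The testis somatic markers Amh, Insl3 and Cyp17a1 summed to 4.98 to 6.52 CPM in paused KO, 1.64 to 2.52 in normal KO, 1.24 to 1.48 in paused wild-type and 1.19 to 1.55 in normal wild-type cells, most of it Amh in paused KO cells. The primordial germ cell markers Prdm1, Nanos3, Dnd1, Kit and Dppa3 summed to 335 to 353, 222 to 246, 127 to 133 and 89.3 to 112 CPM in the same order, most of it Kit. The fibroblast markers summed to 18.8 to 21.5, 31.3 to 34.9, 10.3 to 10.8 and 12.1 to 16.4 CPM, most of it Thy1. With pausing, 34.4% of all genes tested rose and 32.8% fell in KO cells, and 33.3% rose and 27.5% fell in wild-type cells. In the longer lists, 0 of 7 fibroblast genes rose and 3 fell with pausing in KO cells. Among 15 ESC markers 9 rose and 4 fell, and among 5 testis genes 3 rose and 1 fell. In wild-type cells these markers gave, in the same order, 1 higher and 3 lower, 10 higher and 1 lower, and 1 higher and 2 lower. Their part in the results was not tested.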
